A study of Mus musculus with 10 samples.

Results

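The Dlk1-Meg3 imprinted locus was taken as 5 genes, Dlk1, Meg3, Rian, Mirg and Dio3, out of 18193 genes that the array annotation names. All probe sets listed under exactly one of these symbols were used, without regard to their signal. They came to 19 of the 45037 probe sets that are no controls, with 11 for Meg3, 4 for Rian, 2 for Mirg and 2 for Dlk1. For Dio3 the annotation used here listed no probe set, so Dio3 was not analysed here. A probe set was kept for testing when its signal lay above the median of its own array in at least 2 arrays. This kept 18 of the 19 probe sets. The exception was Dlk1 1442724_at.

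RNA was measured on Affymetrix GeneChip 430 2.0 arrays, on which most genes are read by 1 or more sets of short probes. AG-haESC are haploid mouse embryonic stem cells from androgenetic blastocysts, which hold a paternal genome only. The 5 AG-haESC lines had a C57BL/6J background and gave 1 array each. Of these, AGH-OG-1, AGH-OG-2, AGH-OG-3 and AGH-OG-4 carried an Oct4-EGFP transgene at passages 14, 15, 12 and 14, and AGH-EG-1 carried an Actin-EGFP transgene at passage 15. E14 is a wild-type diploid embryonic stem cell line of male origin and 129/Sv background. It was measured on 3 arrays at passage 17, so its spread holds no difference between diploid lines. MEF are wild-type B6D2F1 embryonic fibroblasts of male d13.5 embryos, measured on 2 arrays at passage 2. All cells were sorted by staining with the DNA dye Hoechst, with a 1n gate on the haploid lines and a 2n gate on both diploid groups. Feeder cells, CHIR99021 and PD0325901 are named for the AG-haESC cultures, and the sources used here do not give the medium of the others. The androgenetic lines and E14 differed in ploidy, parental origin, strain, passage and transgene at once, and these cannot be told apart.

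The locus lies on distal mouse chromosome 12 and is expressed by parental origin. Dlk1 and Dio3 are known to be expressed from the paternal chromosome. Meg3, also called Gtl2, Rian and Mirg are noncoding RNAs known to be expressed from the maternal chromosome. Rian hosts small nucleolar RNAs and Mirg hosts a large cluster of microRNAs. A control region between Dlk1 and Meg3 carries DNA methylation on the paternal chromosome, and its unmethylated maternal copy is needed for expression of the noncoding RNAs. Dlk1 encodes a transmembrane protein of the Notch ligand family found in embryonic tissues and preadipocytes. Dio3 encodes the deiodinase that inactivates thyroid hormone.

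The start regions of Meg3, Dlk1 and Rian are shown because Meg3 and Rian were lower in AG-haESC than in E14 below, while Dlk1 was at background in both. Each runs from 250 bases before to 50 bases after the annotated start, in RefSeq for GRCm38.p6, on the plus strand. Meg3 is at chr12:109540746-109541045, Dlk1 at chr12:109452573-109452872 and Rian at chr12:109603695-109603994. Capitals mark every match, on either strand, to TGCCGC (the letters that ZFP57, a keeper of methylated imprints, binds), TGACGTCA (the cAMP response element), GGGCGG (the GC box), TATAAA (the TATA box) or CCAAT.
Meg3: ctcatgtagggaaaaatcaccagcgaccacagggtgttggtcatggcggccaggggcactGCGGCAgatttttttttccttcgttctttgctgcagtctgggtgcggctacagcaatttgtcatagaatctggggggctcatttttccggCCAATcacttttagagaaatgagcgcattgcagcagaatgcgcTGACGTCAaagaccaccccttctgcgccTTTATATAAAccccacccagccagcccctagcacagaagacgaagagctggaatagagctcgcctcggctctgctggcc
Dlk1: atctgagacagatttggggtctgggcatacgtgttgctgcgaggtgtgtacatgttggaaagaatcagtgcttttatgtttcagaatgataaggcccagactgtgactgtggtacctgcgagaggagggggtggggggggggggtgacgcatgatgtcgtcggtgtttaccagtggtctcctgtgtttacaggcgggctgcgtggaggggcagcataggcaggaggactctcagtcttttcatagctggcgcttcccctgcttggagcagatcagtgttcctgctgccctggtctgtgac
Rian: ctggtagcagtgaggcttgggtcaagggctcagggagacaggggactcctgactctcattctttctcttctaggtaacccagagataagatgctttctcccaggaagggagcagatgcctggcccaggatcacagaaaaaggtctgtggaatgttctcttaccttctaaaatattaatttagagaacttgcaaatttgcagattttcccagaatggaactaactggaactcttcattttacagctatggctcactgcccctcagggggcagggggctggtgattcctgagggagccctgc
The Meg3 window held 1 match to TGCCGC, at position -190 from the start and read from the minus strand, and 1 to TGACGTCA, at -57. It also held CCAAT at -100 and a pair of overlapping TATAAA matches on opposite strands. Among 32851 promoters of the same length, 11.6% held TGCCGC, 1.79% TGACGTCA, 13.6% TATAAA, 37.4% CCAAT and 35.7% GGGCGG. None of these letters occurred in the Dlk1 and Rian windows. The Meg3 window had 13 CG dinucleotides, Dlk1 9 and Rian 0, against a median of 7 over all promoters. The Mirg window held 1 CCAAT match and 10 CG, and that of Dio3 held 4 GC boxes and 25 CG. RefSeq lists another Meg3 start, whose window held 1 CG and no match. These matches describe letters only, since no methylation or binding was measured.

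Meg3 and Rian were lower in AG-haESC than in E14, and lower in both stem cell groups than in MEF. Mirg was lower in AG-haESC than in MEF, and its difference to E14 depended on single arrays and on the variance setting of the fit. Dlk1 was at background in both stem cell groups, which gives no order between them, and present in MEF. Signals are MAS5 values on a linear scale, scaled by the authors so that the 2% trimmed mean of each array is 500. Array medians lay between 55.9 and 68.0, and a signal below its array's median is treated here as not above background. Group differences are taken within a probe set, and signals of different probe sets are not read as relative amounts of RNA. Probe sets are still ranked by brightness, and marker signals are summed over probe sets.

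Meg3 was read most brightly by 1439380_x_at. Its signal was 916, 976, 1473, 1690.0 and 2039.8 in AGH-OG-1, AGH-OG-2, AGH-EG-1, AGH-OG-3 and AGH-OG-4. It was 2992, 3102 and 6055 in E14 replicates 1 to 3, and 16369.6 and 13704 in the MEF arrays. Every AG-haESC line thus lay below every E14 array, and every E14 array below both MEF arrays. On the log2 scale the mean was 10.40 ± 0.50 in the haploid lines (SD, n = 5), 11.90 ± 0.57 in E14 (SD, n = 3) and 13.87 ± 0.18 in MEF (SD, n = 2). The log2 difference of AG-haESC minus E14 was -1.50 ± 0.29 (SE), with a limma adjusted p of 0.00674. AG-haESC minus MEF was -3.47 ± 0.34 (adjusted p = 5.94e-06) and E14 minus MEF was -1.97 ± 0.37 (adjusted p = 0.000915). A probe set is called here when its limma p, adjusted by Benjamini-Hochberg over all 27505 kept probe sets, is under 0.05 and it differs 2-fold or more.

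Rian was read most brightly by 1452899_at. Its signal was 487, 419, 786, 712 and 331 in AGH-OG-1, AGH-OG-2, AGH-EG-1, AGH-OG-3 and AGH-OG-4, against 1948, 2055 and 3673 in E14 and 7151 and 7876 in MEF. The 3 groups again did not overlap. The log2 difference of AG-haESC minus E14 was -2.24 ± 0.29 (SE, adjusted p = 0.000627), a 4.72-fold lower signal. It was -3.85 ± 0.33 for AG-haESC minus MEF (adjusted p = 2.59e-06) and -1.62 ± 0.37 for E14 minus MEF (adjusted p = 0.00323).

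Mirg was dimmer. Its brighter probe set 1457030_at read 52.4, 33.8, 124, 95.4 and 109 in the AG-haESC lines, in the same order, against 244, 154 and 661 in E14 and 519 and 608 in MEF. AGH-OG-1 and AGH-OG-2 lay below their array medians, and E14 replicate 3 lay above both MEF arrays. The log2 difference of AG-haESC minus E14 was -1.97 ± 0.50 (SE, adjusted p = 0.0260), and the call was lost without E14 replicate 3 (-1.38, adjusted p = 0.0649), without E14 replicate 1 and without AGH-OG-1. With all arrays in use, the call was also lost when the prior variance of the fit did not follow the signal. Over all alternatives its adjusted p lay between 0.00763 and 0.0649. AG-haESC minus MEF was -2.92 ± 0.58 (adjusted p = 0.00123), while E14 minus MEF, at -0.94 ± 0.63, did not pass (adjusted p = 0.232) unless E14 replicate 3 was left out (-1.53, adjusted p = 0.0386). For E14 against MEF the range over the alternatives was 0.000385 to 0.553.

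Dlk1 was read by 1449939_s_at. Its signal was 50.8, 60.6, 27.2, 46.7 and 42.7 in the AG-haESC lines, against 39.6, 53.3 and 53.6 in E14 and 895 and 697 in MEF. All 8 stem cell arrays lay below their array medians, so both stem cell groups have only an upper bound. The fitted log2 difference of AG-haESC minus E14 was -0.13 ± 0.31 (SE, adjusted p = 0.826), and no fold is given between values at background. Dlk1 was at least 12.7-fold lower in AG-haESC than in MEF (adjusted p = 2.26e-06) and at least 12.03-fold lower in E14 than in MEF (adjusted p = 6.93e-06), with the stem cells put at their array medians. As 1449939_s_at passed the filter only through the 2 MEF arrays, its direction against MEF was partly fixed by the filter. The other Dlk1 probe set, 1442724_at, read 2.47 to 33.0 in AG-haESC, 5.26 to 10.8 in E14 and 14.8 to 44.8 in MEF, below the median on all 10 arrays.

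**Figure D1:**
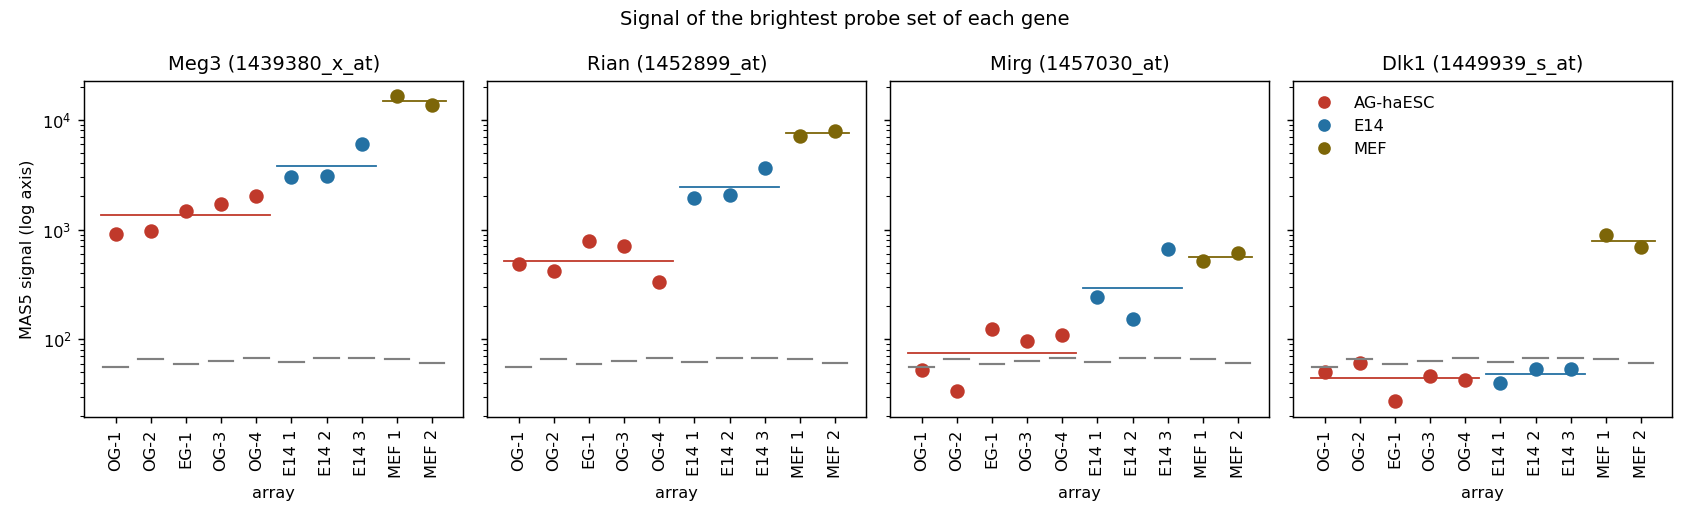
MAS5 signal on a log axis (y) in each array (x) for the brightest probe set of Meg3, Rian, Mirg and Dlk1. Points are arrays, coloured lines are geometric group means and grey dashes are the medians of each array. Meg3 and Rian fall into 3 groups without overlap, while Dlk1 lies below the array medians in all 8 stem cell arrays.

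Over the 18 kept probe sets, 9 were called lower in AG-haESC than in E14 and 0 were called higher. Of all kept probe sets, 2.89% were called lower in this comparison. The 9 were 6 of 11 for Meg3, 2 of 4 for Rian, 1 of 2 for Mirg and 0 of 1 for Dlk1. They include Meg3 1428764_at by its fitted difference, although its bound, given below, is under 2-fold. All 18 differences were negative, with a median of -1.20 against -0.07 over all kept probe sets. In 10 of the 18, every AG-haESC line lay below every E14 array, against 11.0% of all kept probe sets. Probe sets of one gene were read on the same arrays and are no independent replicates. Without E14 replicate 3, 7 were called, with Meg3 1428764_at and Mirg 1457030_at lost.

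In the 5 brightest of the 11 Meg3 probe sets, the log2 difference of AG-haESC minus E14 ran from -1.40 to -1.90. Next to 1439380_x_at, the probe set 1452905_at read 607, 824, 1174, 1196 and 1706 in the AG-haESC lines, against 2254, 2393 and 5277 in E14 and 14442 and 12138 in MEF. Its difference of AG-haESC minus E14 was -1.56 ± 0.34 (SE, adjusted p = 0.0115). For 1452183_a_at the difference was -1.72 ± 0.34 (adjusted p = 0.00674) and for 1426758_s_at it was -1.40 ± 0.31 (adjusted p = 0.0124). These last 2 probe sets list the same source sequence in the annotation.

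The steepest of the bright Meg3 probe sets was 1436713_s_at. It read 205, 254, 355, 382 and 356 in the AG-haESC lines, against 984, 742 and 1954 in E14 and 7940 and 7256 in MEF. AG-haESC minus E14 was -1.90 ± 0.30 (SE, adjusted p = 0.00193), and AG-haESC minus MEF was -4.65 ± 0.34, a 25.1-fold lower signal (adjusted p = 7.42e-07). The brightest probe set gave 11.1-fold for AG-haESC against MEF. The suffixes _s_at, _a_at and _x_at mark probe sets that can read several transcripts or cross-hybridise, so the sets need not report the same RNA forms.

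The 6 dimmer Meg3 probe sets gave a mixed picture. Signals of 1429257_at were 119.9, 119.2, 135, 118.8 and 106 in the AG-haESC lines, against 136, 118 and 209 in E14 and 219 and 200.3 in MEF. Its log2 difference of AG-haESC minus E14 was -0.32 ± 0.23 (SE, adjusted p = 0.408). For AG-haESC minus MEF it was -0.81 ± 0.27, which passed the adjusted p (0.0234) but not 2-fold. Thus the AG-haESC signal of this probe set stood at 50.4% to 64.5% of its MEF mean, while that of 1439380_x_at stood at 6.09% to 13.6%.

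Among the other dim Meg3 probe sets, 1429256_at lists the same source sequence as 1429257_at and gave -0.43 ± 0.38 for AG-haESC minus E14 (SE, adjusted p = 0.512). The groups did not overlap for 1436057_at, with 76.5, 29.3, 67.4, 58.9 and 58.0 in AG-haESC against 89.97, 142.7 and 107.8 in E14, but its difference of -1.01 ± 0.34 had an adjusted p of 0.0752. The differences of 1452906_at, at -1.01 ± 0.63 (adjusted p = 0.331), and of 1428765_at, at -0.89 ± 0.48 (adjusted p = 0.258), did not pass either. The probe set 1428764_at read 6.85, 2.47, 38.1, 51.7 and 6.52 in the AG-haESC lines against 74.5, 56.8 and 296 in E14, a fitted difference of -3.21 ± 0.94 (adjusted p = 0.0462). All AG-haESC values lay below the array medians, so the signal was at least 1.74-fold lower in AG-haESC, a bound under 2-fold. The call rests on the fitted values at background. It was lost without E14 replicate 3 (adjusted p = 0.123) and under most other alternatives, with an adjusted p between 0.0129 and 0.167. The probe sets 1428764_at and 1428765_at list the same source sequence as the bright 1452905_at.

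The 4 Rian probe sets also split by brightness. The probe set 1427580_a_at read 129, 194, 421, 294 and 157 in the AG-haESC lines, against 635, 509.5 and 1478 in E14 and 3018 and 3135 in MEF. Its difference of AG-haESC minus E14 was -1.85 ± 0.41 (SE, adjusted p = 0.0127), close to that of 1452899_at. In 1440001_at the values were 71.4, 40.1, 101, 104 and 119.5 in AG-haESC, against 88.9, 103.6 and 481 in E14 and 346 and 329 in MEF. In 1428055_at they were 22.6, 33.3, 81.4, 86.5 and 38.0 in AG-haESC, against 46.4, 36.7 and 321 in E14 and 151 and 149 in MEF. For both dim Rian probe sets AG-haESC overlapped E14, and the differences of -1.01 ± 0.53 (adjusted p = 0.242) and -0.84 ± 0.68 (adjusted p = 0.469) did not pass. Without E14 replicate 3 they became -0.24 and 0.15. The second Mirg probe set, 1440097_at, behaved alike, with 48.8, 71.0, 59.9, 20.95 and 54.4 in AG-haESC against 66.7, 32.7 and 248 in E14. Its difference of -0.79 ± 0.59 (adjusted p = 0.431) became 0.02 without that array.

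**Figure D2:**
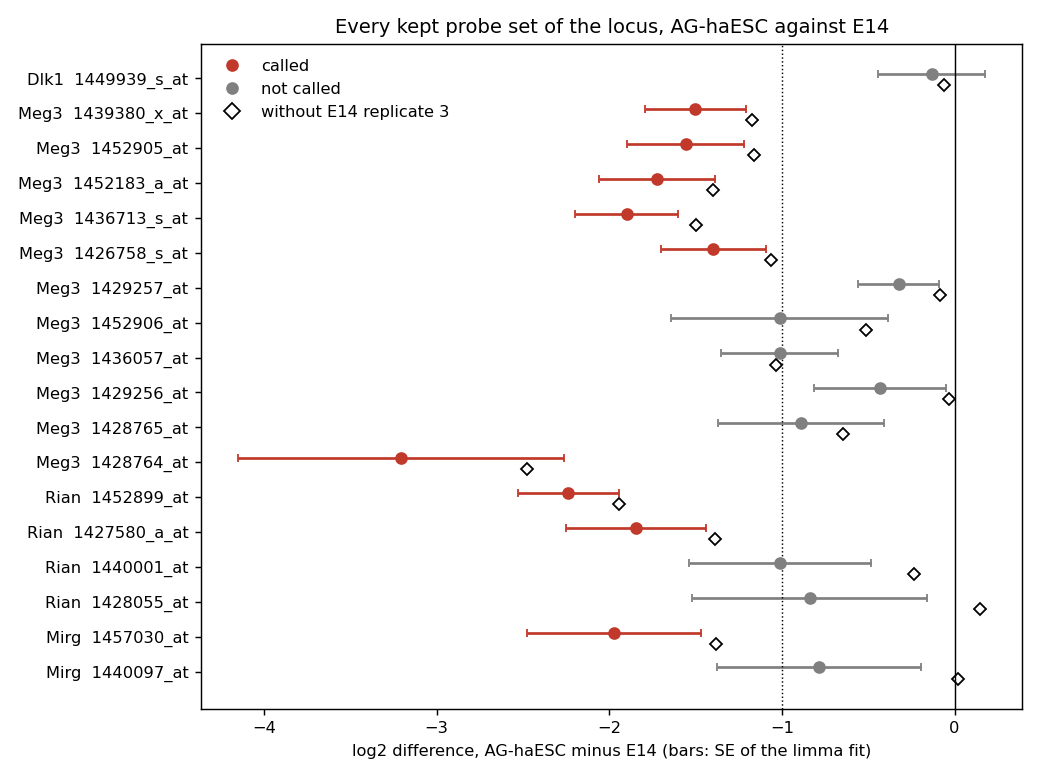
Log2 difference of AG-haESC minus E14 (x) for each of the 18 kept probe sets (y), with the standard error of the limma fit as bars. Red points are called, grey points are not, and open diamonds give the difference without E14 replicate 3, which is nearer to 0 or above it for all but Meg3 1436057_at. The dotted line marks 2-fold lower.

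The sizes were compared within arrays, as the log2 difference of each probe set to the brightest one of its gene. For AG-haESC against E14 this gave 14 pairs, each with an exact two-sided permutation test over 56 splits of the arrays, whose smallest possible p is 0.0179. After adjustment over the pairs 0 of 14 passed, with a lowest adjusted p of 0.167, and 3 had an unadjusted p under 0.05. These 3 were Meg3 1429256_at, whose difference was smaller than that of 1439380_x_at by 1.07 log2 units (exact permutation p = 0.0179), Meg3 1429257_at, smaller by 1.18 (exact permutation p = 0.0357), and Meg3 1452183_a_at, with -0.22 (exact permutation p = 0.0357). The value for 1429256_at rests on signals below the array median in 5 of 5 AG-haESC and 2 of 3 E14 arrays, so its size is not measured. For AG-haESC against MEF 0 of 14 pairs passed either, with a lowest adjusted p of 0.0952, and 7 had an unadjusted p under 0.05. There the exact test over 21 splits cannot go below 0.0476, so after adjustment a pair could pass only if all 14 reached that value. All 7 of those pairs stood at that smallest value, with gaps between -1.18 and 2.66 log2 units. The gap of 2.66 was that of Meg3 1429257_at, whose signal lay above the array median on all 10 arrays. For AG-haESC against E14, likewise, at least 6 of the 14 pairs had to reach 0.0179, or a still larger number 0.0357 or less, for any to pass. The test could therefore hardly pass at these array numbers, and the adjusted values say nothing for or against a difference in size.

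**Figure D3:**
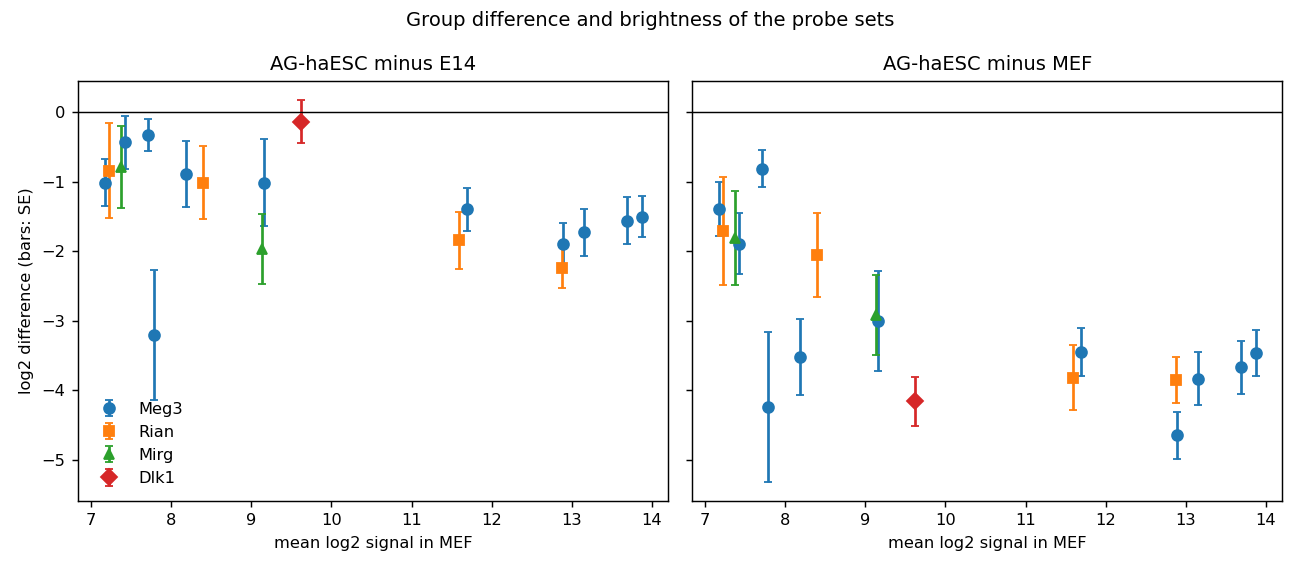
Log2 difference (y, bars are SE) of AG-haESC minus E14 on the left and AG-haESC minus MEF on the right, against the mean log2 signal of each kept probe set in MEF (x). The 7 probe sets of Meg3 and Rian above a log2 signal of 11 lie between -1.40 and -2.24 on the left, while the dimmer sets include values at background. The lowest point on the left, Meg3 1428764_at, is one of these and has only a bound of at least 1.74-fold lower.

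Against MEF, 16 of the 18 kept probe sets were called lower in AG-haESC, where 20.0% of all kept probe sets were. In all 18 every AG-haESC line lay below both MEF arrays, against 32.1% of all kept probe sets. The median difference was -3.46, against 0.08 over all. The 2 not called were Meg3 1429257_at and Rian 1428055_at, and Rian 1428055_at stood at -1.71 ± 0.78 (SE, adjusted p = 0.0843). With either MEF array left out, 13 were called, and Meg3 1436057_at, Rian 1440001_at and Mirg 1440097_at lost their calls. For E14 against MEF, 10 of 18 were called lower, where 19.1% of all kept probe sets were, and 12 of 18 did not overlap, against 32.7% of all. Without E14 replicate 3 these became 15 called and 18 without overlap. Dlk1 1449939_s_at and Meg3 1428765_at passed the filter only through the 2 MEF arrays. Their place in these counts was thus partly fixed by the filter and is no support. The probe set that was not kept, Dlk1 1442724_at, overlapped between AG-haESC and MEF. The comparisons share their MEF, AG-haESC or E14 arrays and are not independent.

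As a share of the MEF mean, 1439380_x_at of Meg3 averaged 9.44% ± 3.17 over the AG-haESC lines (SD, n = 5), against 26.9% ± 11.6 in E14 (SD, n = 3). Rian 1452899_at averaged 7.28% ± 2.58 over the same lines (SD, n = 5), against 34.1% ± 12.9 in E14 (SD, n = 3). Both noncoding RNAs were thus measured in all AG-haESC lines, with a signal above the array median on 10 of 10 arrays for these probe sets, and at a fraction of the level in MEF.

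**Figure D4:**
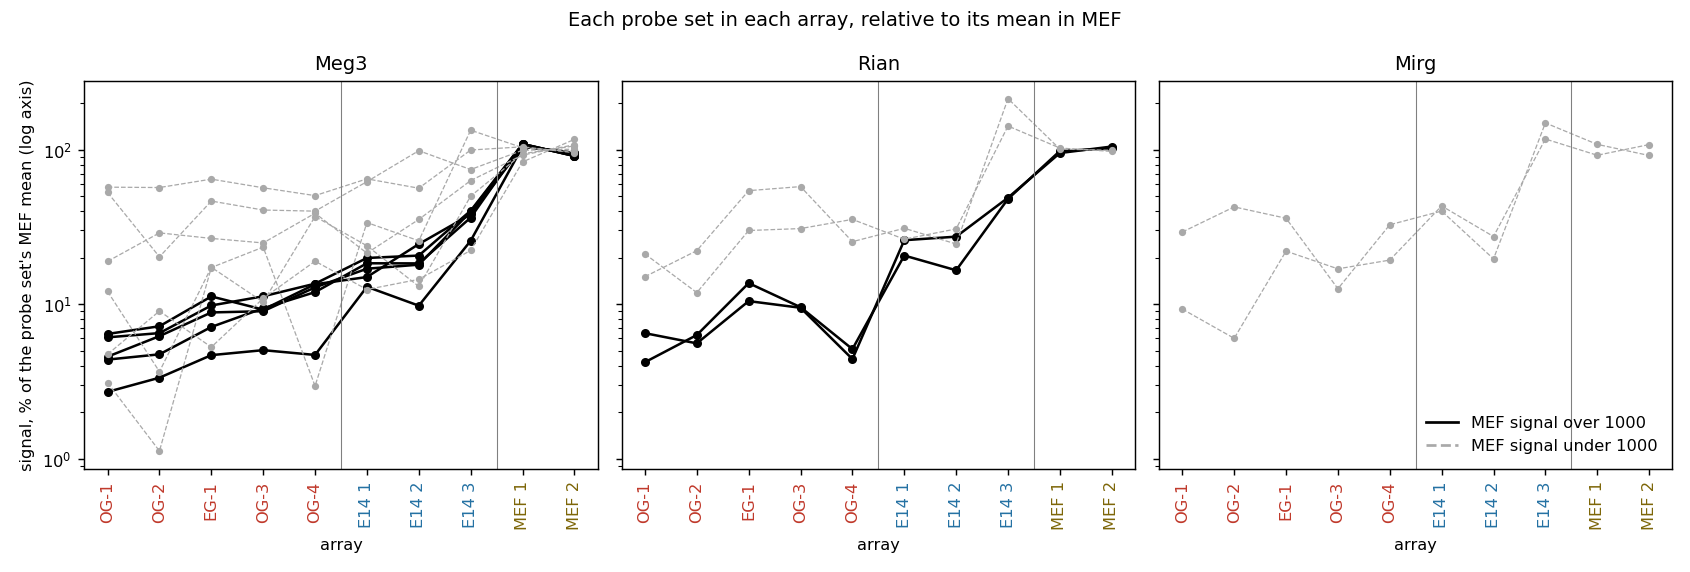
Signal of each kept Meg3, Rian and Mirg probe set in each array (x), as a percentage of its mean in the MEF arrays on a log axis (y). Solid black lines are probe sets with a MEF signal over 1000 and dashed grey lines the dimmer ones. The black lines lie at 2.70% to 13.7% in AG-haESC and 9.77% to 48.9% in E14. In AGH-OG-4 those of Rian, at 4.41% and 5.11%, lie below 4 of the 5 of Meg3, at 11.96% to 13.6%.

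E14 replicate 3 stood apart at this locus and over the whole array. Its limma array weight over all kept probe sets was 0.235, the lowest of the 10 arrays, against 2.65 and 1.06 in E14 replicates 1 and 2. Leaving it out moved the calls of AG-haESC against E14 over all kept probe sets from 1202 higher and 795 lower to 1553 and 1040. E14 replicate 3 was also extreme among the members. It had the highest signal of the E14 arrays for 17 of the 18 kept probe sets, against 39.0% of all kept probe sets. It lay at least 1 log2 unit above the mean of E14 replicates 1 and 2 for 10 of 18, or 55.6%, against 11.6% of all kept probe sets. The median of this excess was 1.19 over the members and -0.03 over all. Its Meg3 signal of 6055 in 1439380_x_at compares with 2992 and 3102 in the other E14 arrays. Even so, without it the Meg3 difference of AG-haESC minus E14 in 1439380_x_at was -1.17 (limma adjusted p = 0.0150) and that of Rian 1452899_at was -1.95 (adjusted p = 0.00131). Over all alternatives these adjusted p-values reached at most 0.0231 for Meg3 and 0.00420 for Rian.

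The AG-haESC lines differed among themselves. For Meg3 1439380_x_at the order was AGH-OG-1, AGH-OG-2, AGH-EG-1, AGH-OG-3 and AGH-OG-4 from low to high, over a range of 916 to 2039.8. AGH-OG-4 was highest for Meg3 in 1439380_x_at, 1452905_at, 1452183_a_at and 1426758_s_at. The same line was lowest for Rian in 1452899_at, with 331 against 419 to 786 in the other lines, and had 157 in 1427580_a_at, where AGH-OG-1 was lower at 129. Relative to their MEF means, Rian 1452899_at minus Meg3 1439380_x_at was -1.63 on the log2 scale in AGH-OG-4. It lay between -0.25 and 0.09 in the other lines and between 0.28 and 0.40 in E14. In the dim Rian probe set 1440001_at AGH-OG-4 was instead the highest line, at 119.5. This contrast was picked after the values were seen, rests on 1 array and was not tested.

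Over the 10 arrays, the genes whose log2 signal most resembled Meg3 were Junb, Slc38a6 and Phykpl, with Pearson's r of 0.980, 0.978 and 0.973. For Rian they were Rnf25, Spop and Asphd2 (r of 0.978, 0.976 and 0.972), for Mirg Zfp764, Slc39a8 and Lrrc61 (0.952, 0.947 and 0.941), and for Dlk1 Vasn, Synpo and Sun2 (0.991, 0.990 and 0.989). Each used the brightest kept probe set of a gene, and these values mostly follow the 3 group levels. With group means subtracted, Meg3 and Mirg correlated at 0.862, Rian and Mirg at 0.598, and Meg3 and Rian at 0.360. The genes nearest to Meg3 were then Ctf1, 1700088E04Rik and Zim1 (0.921, 0.916 and 0.912), and those nearest to Rian were Slc27a2, Med8 and Ly86 (0.988, 0.967 and 0.962). For Mirg these were Klhdc8a, Zfp689 and Pdzd11. Dlk1 gave -0.17 with Meg3, -0.32 with Rian and -0.50 with Mirg, and its nearest genes were Capn15, Cnnm1 and Tmem139. These Dlk1 values rest mostly on 8 arrays at background and describe no pattern of Dlk1. All are descriptions over 10 arrays that share the groups and, after subtraction, E14 replicate 3.

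Genes around the locus on distal chromosome 12 were set beside it, each by its brightest kept probe set in a fit of 13251 genes. In that fit 4.58% of genes were called higher and 3.74% lower in AG-haESC than in E14. Of 24 neighbours listed, 19 were kept, and 0 were called in either direction by limma, with 4 at an unadjusted p under 0.05 and a median difference of -0.06 against -0.08 over all genes. Mok (0.84, adjusted p = 0.0113) and Slc25a29 (-0.92, adjusted p = 0.0462) passed the adjusted p without reaching 2-fold. The brightest neighbours, Hsp90aa1, which encodes a heat shock protein, and Yy1, which encodes a transcription factor, gave 0.08 ± 0.08 and -0.02 ± 0.09 (SE). Without E14 replicate 3, 2 neighbours were called higher, Mok (1.04) and Slc25a47 (1.25), named here after their values were seen. Without AGH-OG-4, Slc25a29 was called lower. Begain and Rtl1, also at the locus, had no listed probe set, and Dio3os, which lies beside Dio3, had 1 that was not kept.

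A list of DNA methylation and chromatin factors, drawn up around imprinting, had 1 of 23 kept genes called higher and 0 lower in AG-haESC than in E14. Beside factors that set or keep DNA methylation it holds Tet1 and Tet2, which act in its removal, and the Polycomb genes Ezh2, Eed, Suz12 and Jarid2. Dppa3, which encodes a protein that guards methylation in the early embryo, averaged a log2 signal of 12.34 in the AG-haESC lines against 10.51 in E14 arrays, which differed by 1.83 ± 0.35 (SE, adjusted p = 0.00555). Of the 23 kept, 11 had an unadjusted limma p under 0.05, in both directions, and the list's median was -0.17 against -0.08 over all genes. Its brightest genes, Trim28, the corepressor that ZFP57 recruits, and Hells, a chromatin remodeller, gave -0.26 ± 0.10 (adjusted p = 0.106) and -0.32 ± 0.13 (adjusted p = 0.134). Mbd3 (-0.70, adjusted p = 0.0107) and Suz12 (0.42, adjusted p = 0.0150) passed the adjusted p under 2-fold. Without E14 replicate 3, 3 were called higher, with Dnmt3l (1.04) and Zfp57 (1.34) beside Dppa3. Against MEF, 15 of 23 were called higher and 1, Aff3, lower in AG-haESC, where 19.7% of all genes were called higher and 22.5% lower.

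Of the Notch pathway, to which Dlk1 belongs by its extracellular structure, 18 of 21 listed genes were kept. One, Dll1, which encodes a Notch ligand, was called lower in AG-haESC than in E14, with mean log2 signals of 7.11 and 8.93 and a difference of -1.82 ± 0.37 (SE, adjusted p = 0.00703). None was called higher. Of the 18 kept, 11 had an unadjusted limma p under 0.05, and the list's median was -0.63 against -0.08 over all genes. Rbpj (0.42, adjusted p = 0.0388), Rfng (-0.81, adjusted p = 0.0323) and Hey1 (-0.81, adjusted p = 0.0462) passed the adjusted p under 2-fold. The number called lower was 2 without E14 replicate 3 (Notch3 with Dll1), 2 without AGH-EG-1 (Dll3 with Dll1) and 3 with array weights (Notch3 and Jag2 with Dll1). Of 15 genes of thyroid hormone handling, 9 were kept and 0 were called by limma, with 3 at an unadjusted p under 0.05. Without E14 replicate 1, Rxrb alone was called lower. The brightest were Klf9, a thyroid hormone responsive factor, at 0.00 ± 0.24, and Rxrb, a receptor partner, at -0.83 ± 0.19 (adjusted p = 0.0135, under 2-fold). Against MEF, the neighbours held 1 gene called higher in AG-haESC (Mok) and 4 called lower (Evl, Wars, Slc25a29 and Eml1). The Notch pathway held 3 called higher (Notch4, Mfng and Jag2) and 6 called lower, and thyroid hormone handling held 2 called higher (Klf9 and Rxra) and 2 called lower (Thra and Crym). Of all genes, 19.7% were called higher and 22.5% lower in AG-haESC than in MEF, and the counts of these small lists were not tested against those shares. The genes named here against MEF were picked after their values were seen. Without MEF replicate 1 or 2, 2 of the neighbours were called lower, and without MEF replicate 2, 3 were called higher and 1 thyroid hormone gene lower.

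Marker genes were read beside the locus, since MEF had the highest mean of every member's brightest probe set and AG-haESC were grown on feeder cells. The summed signal of 6 stem cell markers was 61506 to 68071 in AG-haESC, 62065 to 67026 in E14 and 343 to 463 in MEF. Within this list Zfp42 was called lower in AG-haESC than in E14 (-1.56 ± 0.40, limma adjusted p = 0.0219), and Nanog was higher under 2-fold (0.87 ± 0.12, adjusted p = 0.000750). The summed signal of 8 fibroblast markers was 2115, 7390, 4721, 2418 and 4438 in AGH-OG-1, AGH-OG-2, AGH-EG-1, AGH-OG-3 and AGH-OG-4. It was 636, 794 and 1603 in E14 and 107946 to 130625 in MEF. All 8 markers lay above the array median in every AG-haESC array, while in E14 4 or 5 of 8 did, with Col1a1, Postn and Lum below it in all 3 arrays. By limma 5 of the 8 were called higher in AG-haESC than in E14, opposite in direction to Meg3 and Rian. As a share of the MEF mean, the marker sum was 1.77% to 6.20% in AG-haESC and 0.533% to 1.34% in E14. This sum is weighted to the brightest markers and gives no fraction of fibroblast RNA. Marker by marker, AG-haESC minus MEF ran from -4.01 for Col1a2 to -6.91 for Postn on the log2 scale. E14 minus MEF ran from -5.21 for Pdgfra to -9.94 for Postn. AGH-OG-2 had 6.20% for the markers against 6.49% for Meg3 and 5.57% for Rian, and AGH-OG-4 had 3.72% against 13.6% and 4.41%. AGH-OG-1 had 1.77% against 6.09% and 6.48%, AGH-EG-1 had 3.96% against 9.80% and 10.5%, and AGH-OG-3 had 2.03% against 11.2% and 9.47%. In bulk samples a smaller number of expressing cells and less RNA per cell cannot be told apart, and the part of fibroblast RNA in the AG-haESC levels was not tested. E14 replicate 3 also had the highest marker sum of the E14 arrays, and its part in the E14 levels was not tested.

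**Figure D5:**
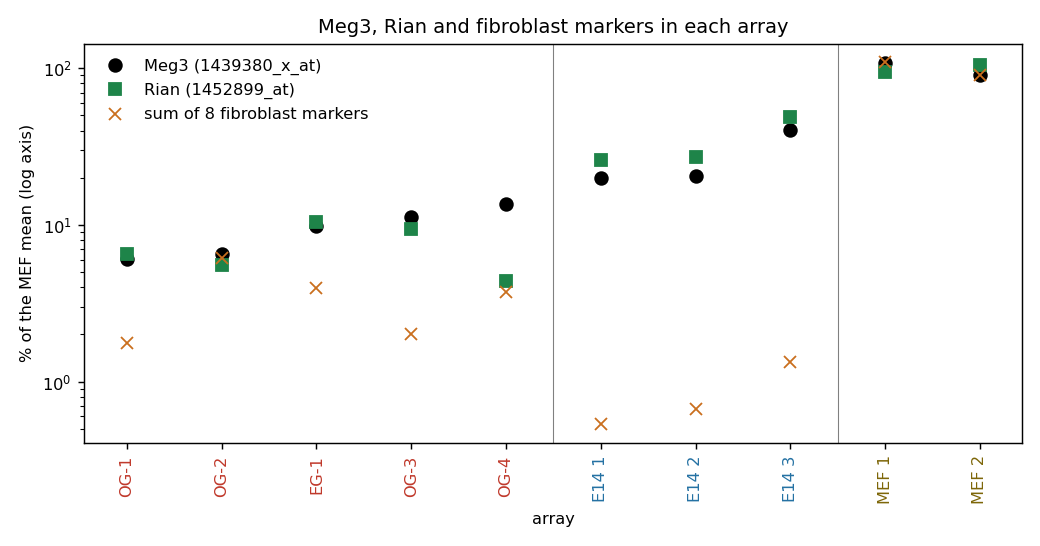
Meg3 1439380_x_at (circles), Rian 1452899_at (squares) and the sum of 8 fibroblast markers (crosses) in each array (x), as a percentage of the MEF mean on a log axis (y). The sum is weighted to the brightest markers and gives no fraction of fibroblast RNA. In AGH-OG-2 the 3 values lie between 5.57% and 6.49%. In the other AG-haESC lines the marker sum lies at 1.77% to 3.96%, with Meg3 at 6.09% to 13.6% and Rian at 4.41% to 10.5%. In E14 the marker sum stays at 1.34% or below with Meg3 at 19.9% or above.

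Macrophage markers summed to 320 to 448 in AG-haESC, 484 to 570 in E14 and 3874 to 4435 in MEF, and skeletal muscle markers to 198 to 516, 373 to 450 and 2647 to 3066 in the same order. By limma 0 of the 5 macrophage and 0 of the 5 muscle markers were called between AG-haESC and E14, with 1 and 0 at an unadjusted p under 0.05. Hepatoblast markers summed to 144 to 368 in AG-haESC, against 24 to 44 in E14 and 19 to 36 in MEF. Alb and Ttr lay below the array median on all 10 arrays. Afp, which encodes alpha-fetoprotein of fetal liver and yolk sac, lay above it in all 5 AG-haESC arrays and below it in all others. It was at least 2.28-fold higher in AG-haESC than in E14 (limma adjusted p = 0.00171) and at least 2.37-fold higher than in MEF (adjusted p = 2.70e-05), and its part in the values of the locus was not tested.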

How the data were processed

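RNA from 10 mouse cell samples was measured on arrays. The deposited signal intensities per probe set were made by the authors with MAS5, per the submitters' processing notes, and are linear. The sources used here do not give its version or detection calls. Of 45101 probe sets, 64 controls were left out, and 27505 of the rest were kept, with a signal above the median of their own array in at least 2 arrays. Scaling fixes each array's mean, so values are relative within an array, and the number of arrays limits the precision.

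Log2 signals went into limma 3.58.1 (R 4.3.3), fitted as 3 group means over all 10 arrays, 7 residual degrees of freedom, a prior variance that follows the signal, and Benjamini-Hochberg adjustment. The fit was tested on simulated data. Sizes between probe sets were compared by exact permutation over arrays. Lists of genes, each by its brightest kept probe set with 1 symbol, are described by counts without a set test. Named are all probe sets of the members, list genes called in AG-haESC against E14 and otherwise the 2 brightest of a list, and the 3 genes of highest Pearson's r to each member. The members and lists were chosen with earlier results of these data known. A group called "at least" N-fold lower lay below the median on all its arrays and was put at those medians. The adjusted p beside such a bound is that of the fit on the signals themselves and does not test the bound. Replicates are labelled biological for E14 and MEF, but their cultures are not described, so p-values measure the spread between these samples. Genes were matched to RefSeq promoters by symbol, 5 of 5. Alternatives changed the log scale, filter, normalization, variance, weights, arrays and pairing.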

Additional observations from a re-analysis of the deposited data

Results flagged for a closer look

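In Meg3 1436057_at, the AGH-OG-2 line lay apart from the other AG-haESC lines, with a signal of 29.3 against 58.0 in the next lowest line. On the log2 scale, and not on the linear one, the gap reached the 95% critical value of Dixon's test. It was 0.7103 of the group's log2 range, just above that value. Of 19 probe sets tested on the log2 scale in the AG-haESC lines this was the only one set apart, and chance alone sets apart about 1 group in 20. Its cause was not tested.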

How the results depend on the processing

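The number of member probe sets called lower in AG-haESC than in E14 was 9, and lay between 7 and 10 under every alternative run, and between 7 and 9 when each array was left out in turn. Against MEF the number was 16, or 13 to 17 when each array was left out, where a lone MEF array is assumed to vary like the other groups. For E14 against MEF it was 10, or 9 to 15 when each array was left out. With E14 and MEF replicates 1 and 2 alone and the replicate number as a block, 16 were called, and the same arrays without the block, an alternative chosen after seeing the data, also gave 16, and leaving out E14 replicate 3 alone gave 15. Same-numbered E14 and MEF arrays did not deviate together over all kept probe sets (Pearson's r of -0.02). With only replicates 1 and 2 of each group this is a single value, which cannot settle whether the numbers pair the arrays. With the mean of all kept probe sets of a gene, 2 genes in place of 3 were called for AG-haESC against E14. The alternatives for the lists and for pairs of probe sets were also added after seeing the data. The test of pairs of probe sets could hardly pass with all arrays and even less with fewer, so that 0 pairs passed under these alternatives shows no stability. For AG-haESC against E14, values that had not passed the test turned sign in 5 instances, each a probe set under an alternative. Dlk1 1449939_s_at became 0.0511 with array weights and lay between -0.28 and 0.0416 when each array was left out (0.0416 without AGH-EG-1), and Meg3 1429256_at became 0.0553 with array weights. When each array was left out, Rian 1428055_at lay between -1.42 and 0.15 and Mirg 1440097_at between -1.44 and 0.0181, both highest without E14 replicate 3. Of the other instances in that comparison, 17 fell short of the threshold, all of them Meg3 1428764_at or Mirg 1457030_at, 1 newly passed and 283 stayed on their side. Signals below the array medians limit the Dlk1 values in the stem cells and most of the dim probe sets.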
